A study of Mus musculus with 800 samples.

Results

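Of the 32285 genes in the count table, the 6 described here are receptor subunits for GABA, the main inhibitory transmitter of the brain: Gabrb1, Gabrb2, Gabrg1, Gabrg3, Gabbr1 and Gabbr2. They were chosen by symbol, not by their values, though earlier results of these data were known by then. All 6 were found through their Ensembl identifiers. They are some, not all, of the genes of these receptor families. The counts come from 800 single nuclei of C57Bl/6J mice, 40 for each of 20 adeno-associated virus vectors. Every mouse carried the same kind of reporter, a yellow fluorescent protein joined to histone H2B and packaged in the PHP.eB capsid, given in young adulthood at 5e11 vector genomes per mouse, and fluorescent nuclei were sorted 3 to 4 weeks later. The vectors differ in what drives the reporter: hSyn1 is a promoter of neurons, CMV a general viral promoter, DLX2.0 and hI56i carry enhancers of forebrain inhibitory neurons, and the other vectors carry enhancers known from the labels by code alone. The driver decides which cells are sorted, so the nuclei under a vector are no random draw of the tissue. No label names an animal, so a vector is treated as 1 sample, nuclei under it are not replicates, and p-values measure only the spread between vectors, which may be technical.

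All nuclei are labelled as anterior lateral motor cortex. That label does not hold for all of them by RNA: 698 nuclei had 1000 or more genes, and 161 of these formed a cluster with all 8 listed markers of striatal projection neurons, the output cells of a region outside cortex, in 15 vectors. The design text of the series names striatum and visual cortex besides motor cortex. When the nuclei of each vector were split into runs of 8 by title number, 38 of 100 runs held such a nucleus, so glial results are also given without these runs. The other classes were 273 GABAergic-like (inhibitory), 108 glutamatergic-like (excitatory), 106 astrocyte-like and 50 oligodendrocyte-like nuclei. With a minimum of 500 genes the oligodendrocyte-like cluster held 125 nuclei, so the 50 described here leave out many with fewer genes. Names rest on marker RNA alone, and the 6 genes took no part in the clustering. The astrocyte-like cluster scored 1.0 for astrocyte and 0.993 for endothelial markers. Of these, 7 of 8 astrocyte and 0 of 4 endothelial markers were found in at least 25% of its nuclei. Depth over all 800 nuclei ran from 70 to 901264 counts with a median of 260170, and class medians lay between 241227 and 300958 counts, while the median number of genes detected was 2942 in neurons, 1454 in astrocyte-like nuclei and 1140 in the oligodendrocyte-like ones.

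GABA acts on 2 kinds of receptor. GABA-A receptors are chloride channels assembled from alpha, beta and gamma or delta subunits, in which a beta subunit is needed for assembly at the surface and forms the GABA site together with an alpha subunit, and the gamma subunit shapes drug sensitivity and anchoring at synapses. GABA-B receptors are slower, G protein-coupled pairs of Gabbr1, which binds GABA, and Gabbr2, which brings the pair to the surface and couples it to the G protein. Astrocytes as well as neurons are known to carry GABA receptors.

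The DNA just upstream of a gene is shown for the 4 members whose first RefSeq start lies at or before the annotated gene, because these 4 cover the range of patterns described here: Gabrb1 and Gabrg1 were high in astrocyte-like nuclei, Gabrg3 was low in them, and Gabbr1 was near the neuronal level there. Each run holds the 250 bases before the start, 5′ to 3′ on the strand of the gene, from RefSeq on GRCm38.p6 (the assembly behind mm10): Gabrb1 at chr5:71657671-71657920 on the plus strand, Gabrg1 at chr5:70842618-70842867 on the minus strand, Gabrg3 at chr7:57387216-57387465 on the minus strand and Gabbr1 at chr17:37045716-37045965 on the plus strand. Capitals mark TTGGC, the half-site of nuclear factor I, on either strand.
Gabrb1: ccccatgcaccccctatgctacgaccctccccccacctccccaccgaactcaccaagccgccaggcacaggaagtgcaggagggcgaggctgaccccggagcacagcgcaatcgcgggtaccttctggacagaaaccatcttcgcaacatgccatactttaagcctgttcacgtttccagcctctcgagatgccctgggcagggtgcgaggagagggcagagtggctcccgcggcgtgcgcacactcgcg
Gabrg1: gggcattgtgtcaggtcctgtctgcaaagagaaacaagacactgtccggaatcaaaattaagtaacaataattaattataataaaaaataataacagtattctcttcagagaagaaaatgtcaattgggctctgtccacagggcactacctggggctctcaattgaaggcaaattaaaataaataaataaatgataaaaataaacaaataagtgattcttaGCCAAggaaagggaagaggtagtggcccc
Gabrg3: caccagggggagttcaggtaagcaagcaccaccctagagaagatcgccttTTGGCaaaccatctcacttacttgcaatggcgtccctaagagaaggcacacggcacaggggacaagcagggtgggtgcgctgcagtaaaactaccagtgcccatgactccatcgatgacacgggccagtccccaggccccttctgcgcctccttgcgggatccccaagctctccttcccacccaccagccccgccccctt
Gabbr1: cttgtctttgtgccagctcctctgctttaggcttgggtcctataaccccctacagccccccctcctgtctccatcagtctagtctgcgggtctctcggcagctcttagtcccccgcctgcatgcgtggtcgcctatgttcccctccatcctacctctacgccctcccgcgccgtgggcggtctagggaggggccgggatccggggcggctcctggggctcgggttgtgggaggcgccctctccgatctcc
The TTGGC half-site occurred 1 time in the windows of Gabrg1 and Gabrg3 and in neither of the other windows shown, and 41.5% of 32851 mouse promoter windows of this length held it. The Sox core ACAAT occurred 2 times in the Gabrg1 window and in none of the other 3 shown (27.7% of all windows). The cAMP response element TGACGTCA was in none of the 4 (1.55% of all windows). A match describes letters only. The windows differ more in CG dinucleotides: 1 in Gabrg1, at percentile 7.87 of all windows, against 18 in Gabrb1, 16 in Gabbr1 and 9 in Gabrg3, with a median of 6 over all. Gabrg1 was also the poorest of these windows in G and C bases, at 35.6% against 60.4% to 66.0%. Gabrb1 has a second RefSeq start, inside the annotated gene, whose window at chr5:71699682-71699931 is not shown. That window held TTGGC 1 time, ACAAT 1 time and 6 CG dinucleotides (percentile 49.6), with 50.8% G and C bases.

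Levels are sums of counts over the nuclei of a class under a vector, as counts per 1000000 counts (CPM), for vectors with at least 3 such nuclei. Differences between classes were tested within vectors across all genes. The test was the quasi-likelihood test of edgeR, its p-values were adjusted after Benjamini and Hochberg over all genes tested, and the result is given as the edgeR adjusted p with a threshold of 0.05. For scale, the share of all tested genes past the threshold was 17.6% for astrocyte-like against neuronal-like (3.88% higher, 13.7% lower), 43.6% for oligodendrocyte-like against neuronal-like (41.6% lower), 8.53% for striatal projection neuron-like against GABAergic-like (5.34% lower), 3.16% for GABAergic-like against glutamatergic-like, 3.08% for striatal projection neuron-like against glutamatergic-like and 0.264% for Pvalb-like against Sst-like. The members past it were 5 of 6, 4 of 5, 1 of 5, 0 of 5, 0 of 5 and 0 of 5 in the same order. In the first of the comparisons with none, no member had an unadjusted p under 0.05 and DESeq2 called 0, and in that of striatal with glutamatergic-like nuclei 1 member had one and DESeq2 called 1. The member missing from the last 5 comparisons is Gabrg1, whose sums were too low for the filter on low counts in all but the astrocyte comparison. Over all genes the log2 fold change had a median of -1.82 in the astrocyte and -5.70 in the oligodendrocyte comparison, so a glial value near 0 lies above most genes. Levels are shares of the counts of a sum and not molecules per cell.

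**Figure D1:**
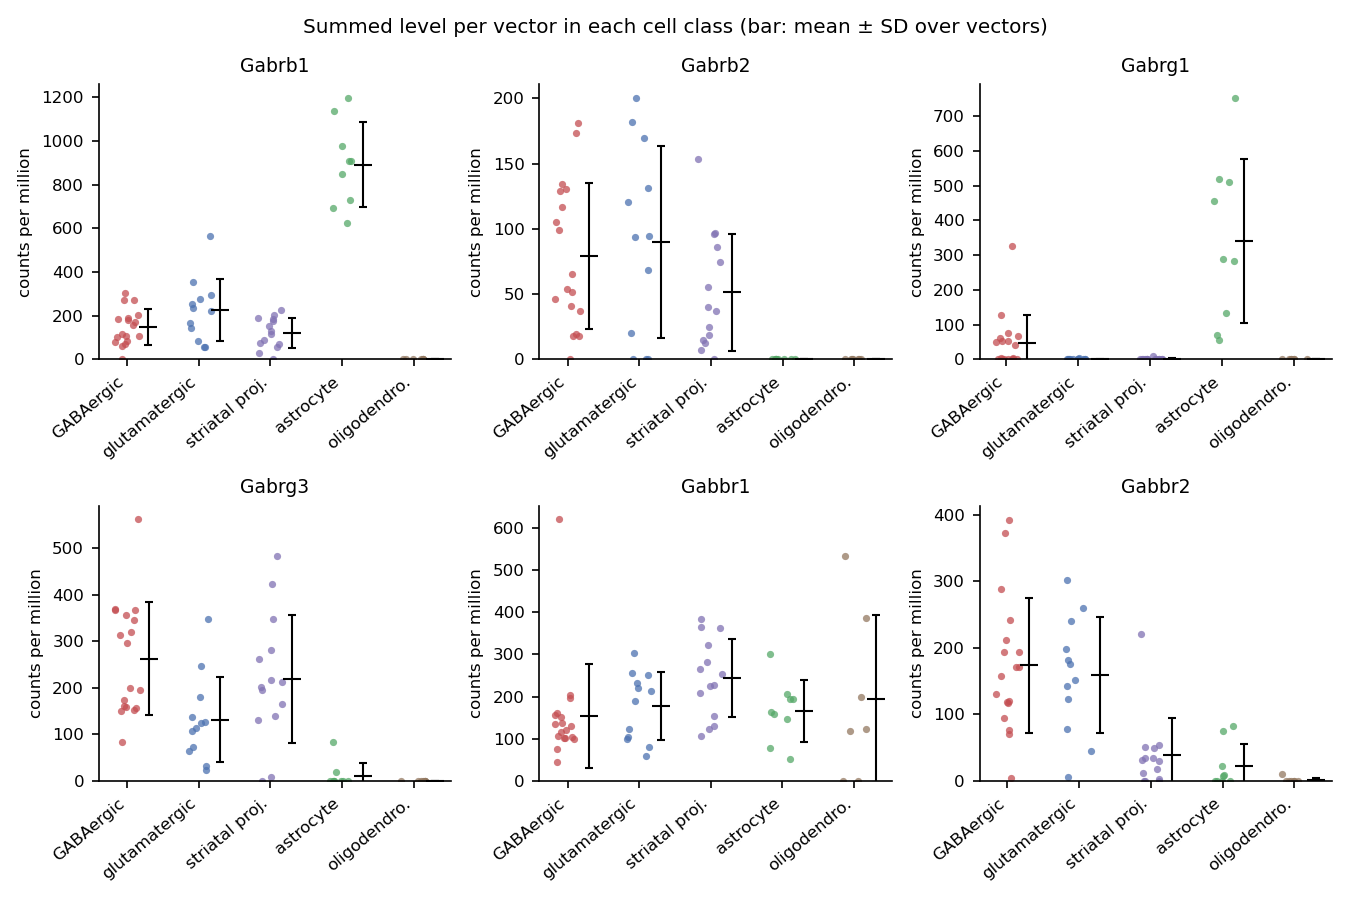
Summed level of each of the 6 genes, in CPM on a linear axis from 0, with 1 point per vector and class and a bar for the mean ± SD over vectors. Gabrb1 reached 625 to 1199 CPM in the 9 astrocyte-like sums and was at 0 in all 7 oligodendrocyte-like sums.

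Among the beta subunits, Gabrb1 (chromosome 5, 71658113 to 72149037, plus strand, mm10) was the member with the clearest class pattern. In astrocyte-like nuclei its lowest, median and highest sums over 9 vectors were 625, 907 and 1199 CPM. The neuronal-like sums of the same vectors ran from 108 to 217 CPM with a median of 188. Every astrocyte-like sum thus lay above every neuronal-like one. The means were 892 CPM ± 194 and 172 CPM ± 39.99 (SD, n = 9 vectors), a log2 fold change of 2.54 (SE 0.42, edgeR adjusted p = 0.000251), higher in 9 of 9 vectors. Library names fall into series, the one batch that the labels show, and within these it was 2.699 in series S40324 (SE 0.63, edgeR adjusted p = 0.0446, 4 vectors) and 1.91 in series S40326 (SE 0.68, edgeR adjusted p = 0.0924, 4 vectors), where it missed the threshold. Without the runs holding striatal nuclei it was 2.71 (SE 0.59, edgeR adjusted p = 0.00393). Oligodendrocyte-like nuclei had 0 counts of Gabrb1 in all 50 nuclei (edgeR adjusted p = 0.000125 against neuronal-like, and 0.13 without the runs holding striatal nuclei). Gabrb1 thus entered that fit through its neuronal-like counts alone.

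Over the neuronal classes Gabrb1 averaged 227 CPM ± 143 in glutamatergic-like (SD, n = 12 vectors), 148 CPM ± 81.6 in GABAergic-like (n = 18) and 121 CPM ± 70.0 in striatal projection neuron-like nuclei (n = 14). These ranges overlapped, and none of the 3 neuronal comparisons passed the threshold. On the same strandless counts, Gabrb1 overlaps Gabra4 and Gm38562 on the opposite strand, and reads of such partners cannot be told apart. Gabra4 (an alpha subunit) was at 69.5 CPM ± 66.8 and Gm38562 at 14.8 CPM ± 30.8 in astrocyte-like nuclei (SD, n = 9 vectors), against 892 CPM for Gabrb1. In striatal projection neuron-like nuclei Gabra4 was above Gabrb1, at 315 CPM ± 97.0 (n = 14). It was at 144 CPM ± 100 in GABAergic-like (n = 18) and 139 CPM ± 108 in glutamatergic-like nuclei (n = 12). The part of both partners in the Gabrb1 level was not tested in any class.

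Gabrb2 (chromosome 11, 42419757 to 42629028, plus strand) was a neuronal gene in these data. Its glutamatergic-like sums had a lowest, median and highest value of 0, 94.1 and 201 CPM, its GABAergic-like sums of 0, 59.6 and 181 CPM, and its striatal projection neuron-like sums of 0, 38.4 and 153 CPM. The 3 ranges overlapped almost wholly, and the log2 fold changes between them, from -1.41 to -0.08, missed the threshold. The gene was at 0 in all 9 astrocyte-like sums against 72.3 CPM ± 46.4 in the neuronal-like sums of those vectors (edgeR adjusted p = 0.00305, lower in 9 of 9 vectors), which is at least 744-fold lower when 3 counts over the group are taken as the floor. Gabrb2 thus passed the filter on low counts through its neuronal-like counts alone, which leaves the direction of this test little room. In series S40324 alone the edgeR adjusted p was 0.337 and in series S40326 alone 0.0924, with 0 in every astrocyte-like sum all the same. Without the runs holding striatal nuclei it was 0.0340, at a fitted value of -10.24. Those vectors held 101 of the 106 astrocyte-like nuclei. Outside them, 2 nuclei did hold counts, and the pooled level over all 106 was 1.96 CPM. Both lay in runs holding striatal nuclei (2 of 17 astrocyte-like nuclei there, against 0 of 89 in other runs). Floors and intervals here cover counting error only, since amplified reads are not independent molecules. In oligodendrocyte-like nuclei Gabrb2 was at 0 in 7 of 7 sums, at least 350-fold lower on the same floor (edgeR adjusted p = 0.000542), a call lost without the runs holding striatal nuclei (edgeR adjusted p = 0.0527). There too it passed the filter through neuronal-like counts alone.

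**Figure D2:**
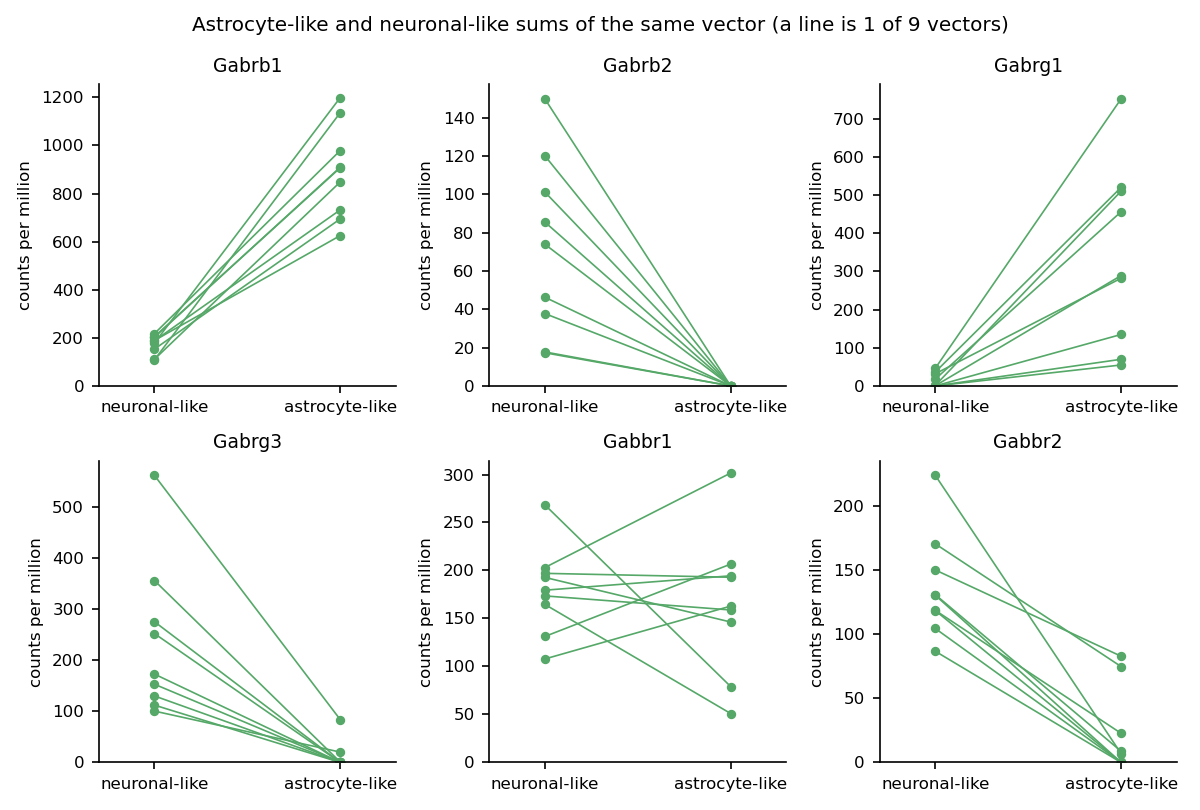
Neuronal-like and astrocyte-like sums of the same vector, in CPM, with 1 line for each of 9 vectors. Lines rise for Gabrb1 and Gabrg1 in 9 of 9 vectors, fall for Gabrb2, Gabrg3 and Gabbr2 in 9 of 9, and go both ways for Gabbr1.

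Of the gamma subunits, Gabrg1 (chromosome 5, 70751047 to 70842617, minus strand) was the rarer gene. Among the 6 comparisons it passed the filter on low counts in the astrocyte comparison alone. Its astrocyte-like sums had a lowest, median and highest value of 54.9, 289 and 752 CPM. The neuronal-like sums of the same vectors were 0, 1.38 and 46.2 CPM, so the groups did not overlap. The log2 fold change was 6.96 (SE 1.19, edgeR adjusted p = 0.000344), higher in 9 of 9 vectors, with means of 341 CPM ± 236 and 14.9 CPM ± 18.7 (SD, n = 9 vectors). It passed the threshold in series S40324 alone at 8.57 (edgeR adjusted p = 0.0218), in series S40326 alone at 4.10 (edgeR adjusted p = 0.0389) and without the runs holding striatal nuclei at 8.31 (edgeR adjusted p = 0.00442).

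The level of Gabrg1 in astrocyte-like nuclei came from a minority of nuclei with many reads. At equal depth 34 of 104 nuclei (32.7%, exact 95% interval 23.8% to 42.6%) held a count, and over all counts the positive nuclei had a median of 745 CPM. Astrocyte markers summed to 11831 CPM in the astrocyte-like nuclei with Gabrg1 and to 11786 CPM in those without it. Among neurons most nuclei with the gene were GABAergic-like: 27 of 260 held a count at equal depth (10.4%, 6.96% to 14.8%), against 1 of 101 glutamatergic-like and 1 of 149 striatal projection neuron-like nuclei. With the filter on low counts removed, Gabrg1 was higher in GABAergic-like than in glutamatergic-like nuclei (log2 fold change 7.08, SE 2.07, edgeR adjusted p = 0.0299) and lower in striatal projection neuron-like than in GABAergic-like nuclei (-9.31, SE 1.85, edgeR adjusted p = 3.19e-05). Glutamatergic-like sums of Gabrg1 were 0 in 11 of 12 vectors and striatal projection neuron-like sums in 12 of 14. The gene thus entered both fits through its GABAergic-like counts. It was in 0 of 50 oligodendrocyte-like nuclei.

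Gabrg3 (chromosome 7, 56716465 to 57387188, minus strand) was broadly neuronal. It averaged 263 CPM ± 121 in GABAergic-like (SD, n = 18 vectors), 219 CPM ± 137 in striatal projection neuron-like (n = 14) and 132 CPM ± 92.0 in glutamatergic-like nuclei (n = 12). GABAergic-like sums were above glutamatergic-like ones in 10 of 12 vectors, but the ranges overlapped and the difference of 0.92 on the log2 scale missed the threshold (SE 0.45, edgeR adjusted p = 0.438). In astrocyte-like nuclei the sums were 0 at the lowest and the median and 83.8 CPM at the highest, all below the lowest neuronal-like sum of 100 CPM. The means there were 11.7 CPM ± 27.8 and 235 CPM ± 149 (SD, n = 9 vectors), and the fitted log2 fold change was -8.99 (SE 1.60, edgeR adjusted p = 0.00053). Of the 9 astrocyte-like sums 5 were 0, so the size of the fitted value depends on how the fit treats zeros. It was -5.12 (edgeR adjusted p = 0.344) in series S40324 alone and -12.81 (edgeR adjusted p = 0.00226) in series S40326 alone. Without the runs holding striatal nuclei it was -9.56 (edgeR adjusted p = 0.00234), and without the vector block -3.999 (edgeR adjusted p = 0.0504), past the threshold no longer. Oligodendrocyte-like nuclei had 0 counts of Gabrg3 in 50 nuclei, at least 905-fold below the neuronal-like sums of the same 7 vectors (edgeR adjusted p = 3.8e-05), and this call too was lost without the runs holding striatal nuclei (edgeR adjusted p = 0.0693). Gabrg3 thus entered that fit through its neuronal-like counts alone.

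**Figure D3:**
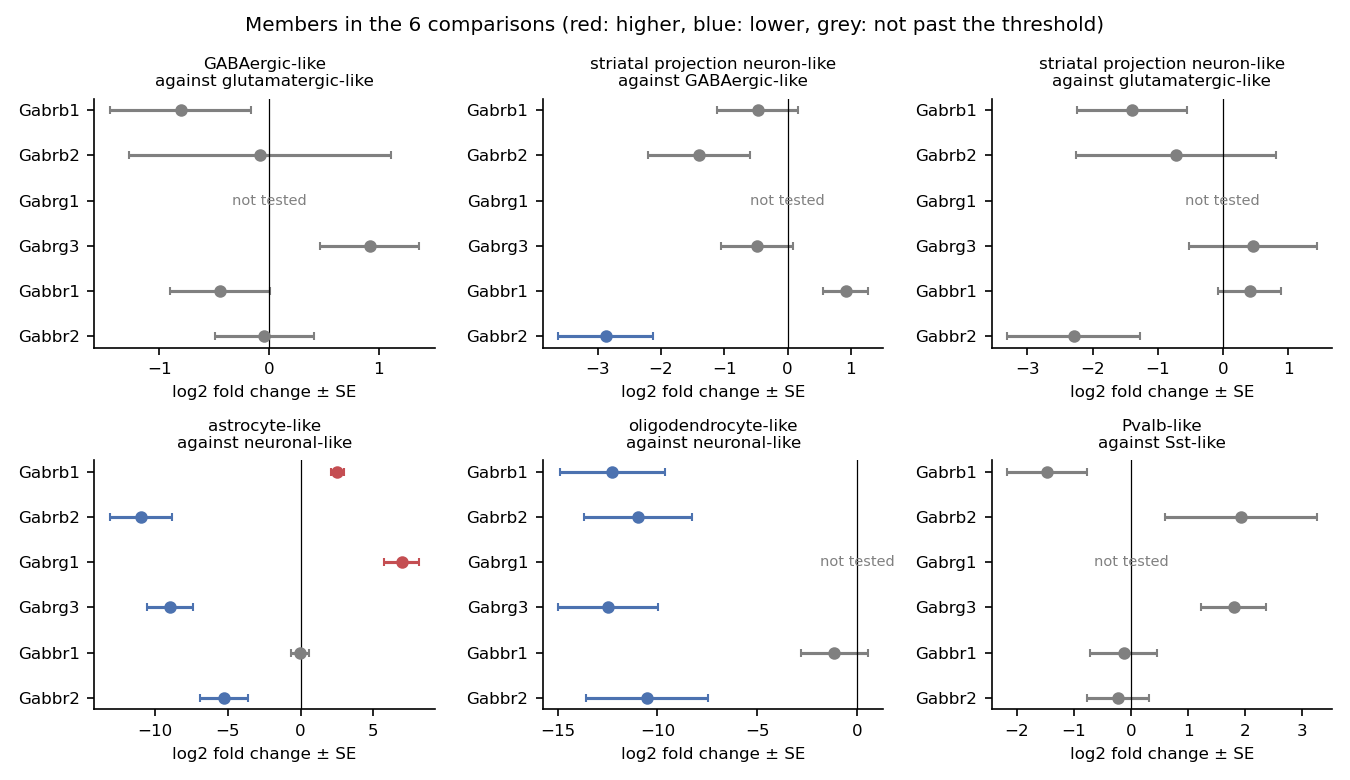
Log2 fold change ± standard error of each member in the 6 comparisons of classes, from edgeR's quasi-likelihood fit over all genes, with the x axis scaled per panel. Past the threshold are 5 members in the astrocyte, 4 in the oligodendrocyte and 1 in the striatal against GABAergic panel, and Gabrg1 is marked as not tested where its counts were too low.

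The GABA-B subunits parted ways across classes, although the working receptor needs both. Gabbr1 (chromosome 17, 37045966 to 37075067, plus strand) was detected in every class. Its class means ran from 153 CPM ± 123 in GABAergic-like nuclei (SD, n = 18 vectors) over 166 CPM ± 73.2 in astrocyte-like (n = 9), 178 CPM ± 80.5 in glutamatergic-like (n = 12) and 194 CPM ± 199 in oligodendrocyte-like (n = 7) to 243 CPM ± 92.7 in striatal projection neuron-like nuclei (n = 14). All neighbours in this order overlapped over vectors. Astrocyte-like and neuronal-like sums differed by -0.06 on the log2 scale (SE 0.61, edgeR adjusted p = 0.96), higher in 4 and lower in 5 of 9 vectors. Gabbr1 was the only member with more than stray counts in oligodendrocyte-like nuclei, where the sums ran from 0 to 532 CPM and the difference from neurons was -1.15 (SE 1.67, edgeR adjusted p = 0.581), an error wide enough to hide several-fold differences. That value ran from -8.54 to -0.05 over 19 alternatives and from -1.81 to -0.49 when 1 vector was left out, with none past the threshold. Striatal projection neuron-like sums were above GABAergic-like ones in 10 of 12 vectors (247 CPM ± 100.01 and 127 CPM ± 33.96, SD, n = 12 vectors), which missed the threshold at 0.92 (SE 0.35, edgeR adjusted p = 0.124) and passed it with DESeq2 at 1.07 (adjusted p = 0.00218) and without the vector block at 1.01 (edgeR adjusted p = 0.0261), 2 of 22 alternatives.

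Gabbr2 (chromosome 4, 46662305 to 46991873, minus strand) was highest in the GABAergic-like and glutamatergic-like classes, whose region is not settled by the labels. It averaged 174 CPM ± 101 in GABAergic-like (SD, n = 18 vectors) and 159 CPM ± 87.4 in glutamatergic-like nuclei (n = 12), with a log2 difference of -0.04 (SE 0.45, edgeR adjusted p = 0.989). In the 12 vectors that held both classes, the striatal projection neuron-like sums had a lowest, median and highest value of 0, 32.6 and 221 CPM. The GABAergic-like sums of those vectors were 4.30, 164 and 372 CPM. Striatal sums were lower in 11 of 12 vectors, although the ranges overlapped, with AiE0447h as the exception at 221 CPM in the striatal and 212 CPM in the GABAergic-like sum. The log2 fold change was -2.88 (SE 0.74, edgeR adjusted p = 0.0153). The call held in 18 of 22 alternatives. It was lost within series S40326 at -1.73 (SE 0.74, edgeR adjusted p = 0.26), without the vector block at -2.05 (edgeR adjusted p = 0.0905), with equal numbers of nuclei at -2.69 (edgeR adjusted p = 0.0685) and with classes set per nucleus at -2.46 (edgeR adjusted p = 0.0563). Series S40324 held 1 such vector and gave no fit. Against glutamatergic-like nuclei the value was -2.29 (SE 1.02, edgeR adjusted p = 0.403), not past the threshold, and DESeq2 gave -2.36 (adjusted p = 0.0166). No test was made of whether the 2 striatal contrasts differ.

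In glia Gabbr2 was low. Astrocyte-like sums had a lowest, median and highest value of 0, 6.86 and 82.9 CPM, all below the lowest neuronal-like sum of 86.8 CPM. The log2 fold change was -5.27 (SE 1.66, edgeR adjusted p = 0.0306), lower in 9 of 9 vectors, but leaving out any 1 of 6 vectors (AiE0391h, AiE0401h, AiE0445h_3xC2, AiE0450h, AiE0600m and AiE0743m_3xC2) raised the adjusted p above the threshold, to at most 0.0641, with values from -6.12 to -4.53. Without the runs holding striatal nuclei it was -4.02 (SE 1.91, edgeR adjusted p = 0.222). Neuronal RNA in these nuclei was low but not 0, since listed GABAergic markers summed to between 0 and 171 CPM and glutamatergic markers to between 0 and 163 CPM in the astrocyte-like sums, and their part in the low neuronal members was not tested. In oligodendrocyte-like nuclei 1 of 50 nuclei held Gabbr2, and the sums were 0 in 6 of 7 vectors (fitted log2 fold change -10.53, SE 3.03, edgeR adjusted p = 0.00351). The oligodendrocyte count of 4 lower members stands against 41.6% of all genes, and it went to 0 without the runs holding striatal nuclei, where all directions stayed and the edgeR adjusted p ran from 0.0527 to 0.158.

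**Figure D4:**
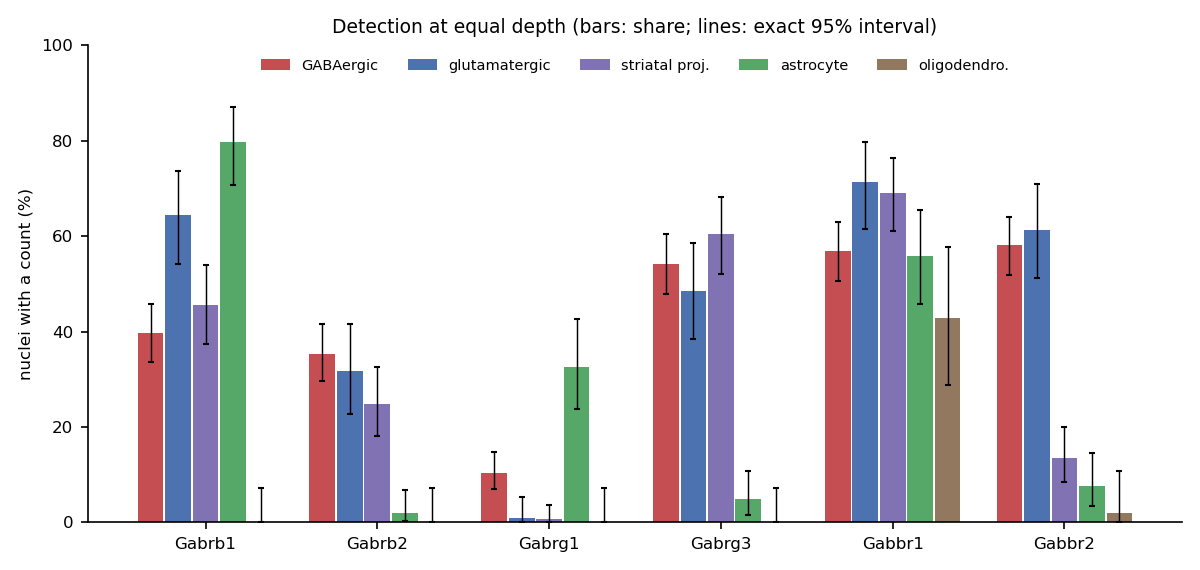
Share of nuclei with at least 1 count of each member after thinning every nucleus to 150000 counts, by class, with exact 95% intervals. Gabbr1 and Gabbr2 have like shares in GABAergic-like and glutamatergic-like nuclei, while in striatal projection neuron-like nuclei they are at 69.1% and 13.4%.

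The GABA-B subunits also parted when nuclei rather than reads were counted. After thinning each nucleus to 150000 counts, which left out 35 shallower nuclei, 103 of 149 striatal projection neuron-like nuclei held Gabbr1 (69.1%, exact 95% interval 61.1% to 76.4%) but only 20 held Gabbr2 (13.4%, 8.40% to 19.97%). In GABAergic-like nuclei the shares were 56.9% and 58.1%, and in glutamatergic-like nuclei 71.3% and 61.4%. Both GABA-B genes were seen together in 45.5% of glutamatergic-like, 34.6% of GABAergic-like, 9.40% of striatal projection neuron-like and 4.81% of astrocyte-like nuclei. Each of these lay near the product of the separate shares, which was 43.8%, 33.1%, 9.28% and 4.29%. The same held for Gabrb1 and Gabrg1 in astrocyte-like nuclei, seen together in 25.96% against a product of 26.1%. In GABAergic-like nuclei that pair was seen together in 7.69% (exact 95% interval 4.76% to 11.6%) against a product of 4.11%. Gabrg1 with Gabrg3 was below its product there, at 2.69% (1.09% to 5.47%) against 5.63%. These pairs are named after their values were seen, the products come from the same nuclei, and a departure was not tested. Oligodendrocyte-like nuclei with none of the 6 genes made up 57.1%, against 2.97% to 6.71% in the other classes. Unthinned, Gabbr1 was in 70.2% and Gabbr2 in 13.7% of striatal projection neuron-like nuclei. The shares treat nuclei as independent draws, and a nucleus without a count may still express the gene.

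Levels of different genes were set side by side per kilobase of annotated exon. Whether reads from introns were counted is not given in the sources used here, and the genes span 29.1 to 671 kb, so this scale is an assumption. On it, Gabrb1 led in astrocyte-like nuclei at 64.5 CPM per kb, followed by Gabrg1 at 43.3 and Gabbr1 at 21.4. In GABAergic-like nuclei Gabbr2 (25.99), Gabrg3 (22.01) and Gabbr1 (19.8) were close together, above Gabrb2 (12.4), Gabrb1 (10.7) and Gabrg1 (6.12). In striatal projection neuron-like nuclei Gabbr1 was at 31.3 and Gabbr2 at 5.75 CPM per kb.

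Within the GABAergic-like class 2 subclasses were compared. Pvalb-like (147 nuclei) and Sst-like (102 nuclei) nuclei could be compared in 11 vectors, where 0 of 5 tested members passed the threshold, 2 had an unadjusted p under 0.05 and DESeq2 called 1. Gabrg3 had a lowest, median and highest Pvalb-like sum of 152, 253 and 442 CPM. The Sst-like sums were 2.74, 116 and 383 CPM. Pvalb-like sums were above Sst-like ones in 10 of 11 vectors, with overlapping ranges, at a log2 fold change of 1.80 (SE 0.57, edgeR adjusted p = 0.324), and DESeq2 called it (1.78, adjusted p = 0.00629). Gabrb1 leaned the other way, with 94.9 CPM ± 76.2 in Pvalb-like and 220 CPM ± 121 in Sst-like nuclei (SD, n = 11 vectors), lower in 10 of 11 vectors (-1.47, SE 0.70, edgeR adjusted p = 0.877). Gabrg1 was at 26.04 CPM ± 84.2 and 116 CPM ± 149 (SD, n = 11 vectors). It was not tested behind the filter, and without the filter it was lower in Pvalb-like nuclei (-6.97, SE 1.65, edgeR adjusted p = 0.00585). Gabrg1 thus entered that fit mostly through its Sst-like counts. Over all vectors with at least 3 such nuclei, its sums were 0 in 10 of 16 for Pvalb-like and 4 of 11 for Sst-like nuclei. Its highest sums in both subclasses were under AiE0387m, at 280 and 420 CPM.

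Gabrg1 was unevenly spread over the clusters beneath these names. A cluster of 23 nuclei led by Nos1, Sst, Tacr1 and Hhip, from 12 vectors, held Gabrg1 in 15 nuclei (65.2%, exact 95% interval 42.7% to 83.6%) and Gabrb1 in 18 (78.3%, 56.3% to 92.5%). The same cluster held neither Gabrb2 nor Gabrg3 in any of its 23 nuclei, which allows up to 13.04% of nuclei with a count when 3 of 23 is taken as the limit, or 14.8% by the upper exact 95% bound, and sets no limit on nuclei that express the gene. Both Gabrb1 and Gabrg1 were present in 12 of the 23. Nos1 makes nitric oxide, and inhibitory neurons with Nos1 and Sst are a known long-range type. In the other 79 Sst-like nuclei Gabrg1 was in 5 (6.33%, 2.09% to 14.2%) and Gabrg3 in 31 (39.2%, 28.4% to 50.9%). The Nos1-led cluster had 11 nuclei in runs holding striatal nuclei, of which 6 held Gabrg1, and 12 in other runs, of which 9 did. Its counts of Gabrb2 were 0 in both.

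A second cluster with Gabrg1 was led by Sfta3-ps, Pthlh, Gpr83 and Igfbp4, with 10 of 45 nuclei (22.2%, 11.2% to 37.1%) in 6 vectors. Clusters led by Pvalb (2 of 99 nuclei), by Lama4 (3 of 79) and by Vip (0 of 27) held little or none. Astrocyte markers were at 72.2 CPM in GABAergic-like nuclei with Gabrg1 (30 nuclei) and at 71.96 CPM in those without it (243 nuclei). In astrocyte-like nuclei they were at 11800 CPM. With and without Gabrg1, GABAergic markers were at 1842.5 and 2449 CPM, and striatal projection neuron markers at 536 and 303 CPM. What part RNA of other cells had in the Gabrg1 counts was not tested. These cluster values are descriptions of pooled nuclei, with no test between clusters.

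**Figure D5:**
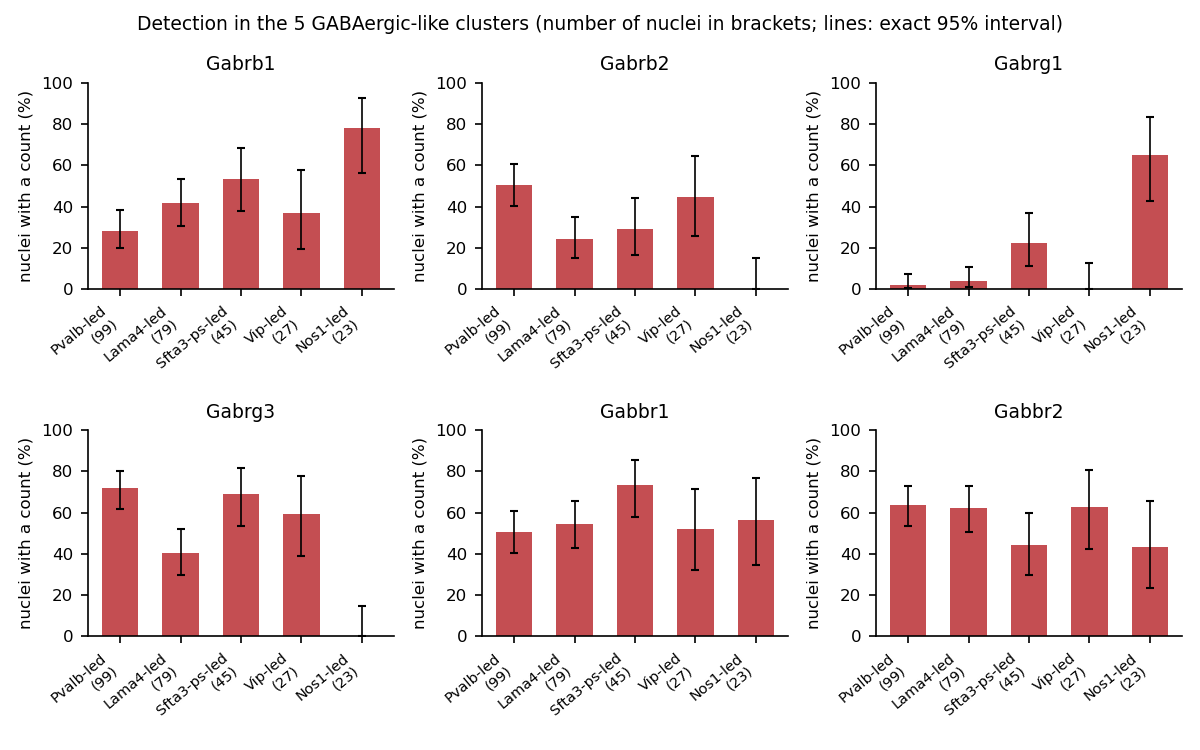
Share of nuclei with at least 1 count of each member in the 5 GABAergic-like clusters, named by their leading gene, over all counts, with exact 95% intervals. The Nos1-led cluster has the highest shares of Gabrg1 (65.2%) and Gabrb1 (78.3%) and 0 of 23 nuclei with Gabrb2 or Gabrg3.

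The partners of these subunits were taken from 5 lists. In astrocyte-like against neuronal-like nuclei 0 of 6 alpha and delta subunits were higher and 4 lower (list median -6.87 on the log2 scale, all genes -1.82), among them Gabra5 with 0.854 CPM ± 2.19 against 24.03 CPM ± 18.2 (SD, n = 9 vectors; edgeR adjusted p = 0.0103). Gabra2, the alpha subunit with the highest astrocyte-like level, was at 135 CPM ± 80.8 there (n = 9) and 143 CPM ± 77.2 in neuronal-like sums (n = 20). It is named after its values were seen. Of 5 tested GABA-B partners 3 were lower, led by Kctd16, an auxiliary subunit of the GABA-B receptor, with 11.1 CPM ± 17.6 against 444 CPM ± 151 (SD, n = 9 vectors; edgeR adjusted p = 0.000365). Of 11 GABA-B effectors 1 was higher and 4 lower. The higher one was Gnao1, a G protein alpha subunit that GABA-B receptors couple to, with 1285 CPM ± 209 against 108 CPM ± 44.0 (SD, n = 9 vectors; log2 fold change 3.81, edgeR adjusted p = 2.01e-06). Of 16 tested anchoring and trafficking genes 3 were lower and 0 higher, and of 3 tested synthesis and uptake genes none passed. Over all tested genes 13.7% were lower and 3.88% higher in this comparison, so the anchoring and trafficking count lay near the share of all genes.

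In striatal projection neuron-like against GABAergic-like nuclei, 2 of 6 alpha and delta subunits were lower, among them Gabra3 (6.13 CPM ± 21.2 against 78.8 CPM ± 77.0, SD, n = 12 vectors; edgeR adjusted p = 0.000154). Of 10 GABA-B effectors 1 was higher and 4 lower (list median -2.58, all genes -0.62). Adcy5, an adenylyl cyclase inhibited through GABA-B receptors, was at 693 CPM ± 303 against 46.2 CPM ± 56.6 (SD, n = 12 vectors; edgeR adjusted p = 0.0022), while Adcy2 was at 0.856 CPM ± 2.83 against 155 CPM ± 111 (edgeR adjusted p = 1.39e-06). Against glutamatergic-like nuclei 1 of 10 effectors was higher and 5 lower, including Kcnj6, a potassium channel opened by GABA-B receptors, with 0.148 CPM ± 0.256 against 137 CPM ± 117 (SD, n = 9 vectors; edgeR adjusted p = 0.000231). The GABA-B partner list had 0 of 4 past the threshold in both striatal comparisons. Over all tested genes 8.53% passed it against GABAergic-like nuclei (5.34% lower) and 3.08% against glutamatergic-like nuclei.

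Between GABAergic-like and glutamatergic-like nuclei 0 of 6 alpha and delta subunits passed the threshold, beside 3.16% of all genes. App, a binding partner of Gabbr1, was higher at 709 CPM ± 264 against 255 CPM ± 154 (SD, n = 12 vectors; edgeR adjusted p = 0.0087), and so was the palmitoyltransferase Zdhhc3 at 54.95 CPM ± 43.2 against 5.197 CPM ± 10.01 (edgeR adjusted p = 0.0231). Between Pvalb-like and Sst-like nuclei 2 of 5 alpha and delta subunits were higher, beside 0.264% of all genes past the threshold. Among them was Gabrd (425 CPM ± 273 against 36.8 CPM ± 49.3, SD, n = 11 vectors, edgeR adjusted p = 0.0214). In oligodendrocyte-like against neuronal-like nuclei 4 of 4 alpha and delta subunits were lower, beside 43.6% of all genes past the threshold. Of 15 tested anchoring and trafficking genes 8 were lower there and 1 was higher. The higher one was Plcl1, a scaffold that binds GABA-A receptor subunits, at 278 CPM ± 202 against 6.31 CPM ± 8.84 (SD, n = 7 vectors, edgeR adjusted p = 0.0109).

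Summed over all nuclei of a vector, the members differed widely between vectors. Gabrb1 ran from 65.5 CPM under AiE0447h to 768 CPM under AiE0390m, with a median of 240 CPM over 20 vectors, and Gabrg1 from 0 in 3 vectors to 231 CPM, again under AiE0390m, whose nuclei were the lowest in Gabrb2 at 3.55 CPM. Gabbr1 varied least, from 108 CPM under AiE0447h to 282 CPM under AiE0390m, and Gabbr2 ran from 4.26 CPM under hI56i to 243 CPM under hSyn1. The low Gabbr2 of hI56i held within its neurons, with 2.36 CPM over 22 neuronal-like nuclei, 4.30 CPM over 4 GABAergic-like and 5.85 CPM over 6 glutamatergic-like nuclei, the lowest of their class in each case. The next lowest neuronal-like sum of a vector was 20.6 CPM under AiE0779m. The neuronal-like nuclei of hI56i also include striatal projection neuron-like ones, whose Gabbr2 sum was 0 and whose class is low in this gene. What part the mix of classes had in the neuronal-like value was not tested. Vectors were not tested against each other, since each is 1 sample.

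Over 60 sums of class and vector, the genes whose log2(CPM + 1) was most correlated with each member included Gm3764 and Ntrk2 for Gabrb1 (Pearson r 0.833 and 0.812), Atcay, A230050P20Rik and Sptbn4 for Gabrb2 (0.813, 0.796 and 0.794), and Prex2, Id3 and Rmst for Gabrg1 (0.809, 0.804 and 0.790). For Gabrg3 they were Dlgap2, Cacna1b and B830012L14Rik (0.925, 0.899 and 0.897), for Gabbr1 Bod1l, Dtx3 and Sub1 (0.797, 0.734 and 0.7099), and for Gabbr2 Shank1, Sept3 and Vwa5b2 (0.778, 0.736 and 0.729). These values are among the highest over 13763 genes searched, the sums share vectors and differ in depth, and the figures describe a likeness of pattern over cell classes only.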

How the data were processed

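The authors deposited a table of raw counts per gene and nucleus from full-length, unstranded SMART-Seq v4 libraries without molecular identifiers. STAR 2.7.2a and mm10 are named in the submitters' processing notes, and the annotation is not given in the sources used here. Positions come from GENCODE M21. Of 2501 columns, 1701 carried no label of this series and were not used. Nuclei with at least 1000 genes (698 of 800) were clustered with scanpy 1.11.5 (2000 variable genes, 30 components, 15 neighbours, Leiden resolution 1), without the 6 genes, and named from listed markers by a scoring rule settled after the clusters were seen. No doublet caller was run. Counts were summed per vector and class and tested with edgeR 4.0.16 (quasi-likelihood, TMM scaling, its filter on low counts, vector as block). The members and lists were chosen with earlier results of these data known. Named genes are all 6 members, at most 2 genes past the threshold per pathway list and direction, and the 3 most correlated genes per member. On simulated data drawn at the trended dispersion, with 100 genes changed by 4 and 100 by 2 on the log2 scale, the fit recovered 45% and 8% for GABAergic-like against glutamatergic-like (8943 genes), 50% and 15% for striatal against GABAergic-like (9210), 39% and 8% for striatal against glutamatergic-like (7595), 12% and 0% for astrocyte-like (10074), 0% and 0% for oligodendrocyte-like (8107) and 52% and 13% for Pvalb-like against Sst-like (8333), with at most 2 false calls each. The real oligodendrocyte-like fit called 3537 genes, so these shares do not carry over to it. DESeq2 1.42.0, other scalings, filters, class rules, library series and leaving out vectors were tried as alternatives. Some genes that this rule selects are not reported here.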

Additional observations from a re-analysis of the deposited data

Results flagged for a closer look

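Groups of 4 to 10 vector sums were searched for a value far from the rest, and 2 of 7 groups held one. Chance flags about 1 in 20 groups of ordinary values, a rate that does not apply to these groups, in which 5 of 9 and 6 of 7 sums were 0. Gabrg3 was at 83.8 CPM in the astrocyte-like sum of AiE0390m (25 nuclei), and the next of 9 vectors was at 20.2 CPM. Gabbr2 was at 9.88 CPM in the oligodendrocyte-like sum of hI56i (5 nuclei), and the other 6 of 7 vectors were at 0.

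The 102 nuclei with under 1000 genes entered no main comparison, and 5 of the 6 genes had counts there above the limit that a count of 0 allows (0.122 CPM). At a minimum of 500 genes the oligodendrocyte-like cluster grew from 50 to 125 nuclei. Gabbr1 was at 298 CPM in 29 nuclei, Gabrb1 at 72.7 CPM in 7, Gabrg1 at 64.0 CPM in 3, Gabrb2 at 17.1 CPM in 1 and Gabbr2 at 0.488 CPM in 1. Gabrg3 had no count in them.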

How the results depend on the processing

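Leaving out 1 vector kept the number of members past the threshold at 4 to 5 for astrocyte-like nuclei, 4 to 4 for oligodendrocyte-like, 1 to 1 for striatal against GABAergic-like and 0 to 0 for the other 3. DESeq2 gave 2 for striatal against GABAergic-like (2557 of 9210 genes called), 1 for striatal against glutamatergic-like (1066 of 7595) and 1 for Pvalb-like against Sst-like (498 of 8333). Without the filter on low counts the number was 1 for GABAergic-like against glutamatergic-like (484 of 19968 genes called). It was 2 for striatal against GABAergic-like (1413 of 19911) and 1 for Pvalb-like against Sst-like (119 of 18479). The call added in each was Gabrg1, whose sums were too low for the filter in these comparisons. Classes set per nucleus, equal numbers of nuclei and series S40326 alone each gave 0 for striatal against GABAergic-like, and without the vector block the 1 call there was Gabbr1 in place of Gabbr2. For astrocyte-like nuclei the number was 3 without the vector block (802 of 10074 genes called), 3 with equal numbers of nuclei (877 of 7971), 2 in series S40324 (148 of 9802) and 2 in series S40326 (531 of 10301). For oligodendrocyte-like nuclei it was 1 with equal numbers (729 of 4848), 0 in S40324 (113 of 6197), 2 in S40326 (351 of 9004) and 0 without runs holding striatal nuclei (222 of 6885). A minimum of 500 genes gave 1 for Pvalb-like against Sst-like. Fits could not be made in S40324 for the 3 comparisons among neuron classes, with runs as the unit for both striatal and both glial comparisons, or at resolution 0.5 for Pvalb-like against Sst-like.

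Every value that changed sign missed the threshold. For GABAergic-like against glutamatergic-like these were Gabrb1 at 0.10 with runs as the unit, Gabrb2 at 0.49 with classes per nucleus, and Gabbr2 at 5.69e-05 without filter, 0.0163 without block, 0.0506 with classes per nucleus, 0.0267 thinned and 0.29 without striatal runs. For striatal against GABAergic-like, Gabrb1 was 0.12 with classes per nucleus and 0.19 with equal numbers, and Gabrg3 was 0.18 with equal numbers (-0.20 against glutamatergic-like). For astrocyte-like nuclei Gabbr1 was 0.27 with DESeq2, 0.0586 without block, 0.10 with classes per nucleus and 0.0203 without striatal runs. For Pvalb-like against Sst-like, Gabrb1 was 0.55 in S40324, Gabbr1 was 0.33 at 500 genes, 1.76 in S40324 and 1.52 by runs, and Gabbr2 was 3.38, 1.66 and 0.49 in that order. Leaving out 1 vector moved Gabrb2 from -0.50 to 0.33 and Gabbr2 from -0.22 to 0.13 in the first comparison, Gabbr1 from -0.20 to 0.14 in astrocyte-like nuclei, and Gabbr1 from -0.38 to 0.0923 and Gabbr2 from -0.46 to 0.0016 in the last. The cause was not tested.

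Over all genes edgeR called 283, 786, 234, 1771, 3537 and 22 in the order GABAergic-like against glutamatergic-like, striatal against each, astrocyte-like, oligodendrocyte-like and Pvalb-like, and DESeq2 called 1459, 2557, 1066, 4702, 5496 and 498. Without the vector block 802 (409 higher) and 1078 (158 higher) were called for astrocyte-like and oligodendrocyte-like nuclei, against 391 and 165 higher with it, and the median of all genes moved from -1.82 to -0.31 and from -5.70 to -1.01. Classes were paired by vector in every fit but those without the block. By title number, no paired analysis was possible because these numbers only count nuclei under a vector.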
